A study of Saccharomyces cerevisiae with 24 samples.

Results

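The nuclear genes of the mitochondrial ribosomal proteins, called MRP genes here, were described in the W303 genome annotation of a ChIP-seq study of Uls1 and Top2. They were taken as the gene features on nuclear chromosomes 1 to 16 whose name starts with MRPL, MRPS, MRP and a digit, or RSM and a digit. This gave 67 features with 66 names among 5613 nuclear gene features. The RPL and RPS genes of the cytosolic ribosome, 129 features with 128 names, served as background. The series holds 24 ChIP-seq libraries in 12 groups of 2 replicates, with immunoprecipitated and input DNA of each condition as separate groups. All strains were of the W303 background, with marker mutations in ADE2, TRP1, HIS3, URA3, LEU2 and CAN1 and a functional RAD5, and were grown in YPD. FLAG-tagged Uls1 was profiled in WT cells with 0 or 100 μM of the Top2 poison acriflavine (ACF) for 2 h. HA-tagged Top2, an extra copy beside the endogenous one and under the promoter of TOP2, was profiled in WT and uls1Δ cells with 0 or 250 μM ACF for 2 h. For Top2, independent ChIPs were pooled to make the sequencing replicates. No peak, signal or read depth of these libraries was analysed here, so no value below describes binding of Uls1 or Top2. The data are positions, strands, names and size notes from a single annotation, which has no replicates, and no test was made.

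Mitochondria of budding yeast carry their own ribosome, the mitoribosome, which translates the few messages encoded in mitochondrial DNA, mostly subunits of the respiratory chain. Almost all of its proteins are encoded in the nucleus, made on cytosolic ribosomes and imported, many of them with a positively charged presequence at the N-terminus. MRPL genes belong to the large subunit, MRPS and RSM genes to the small subunit, and genes named MRP and a number to either. In the common naming of ribosomal protein families, u marks a family shared by all domains of life, b one shared with bacteria, and m one found in mitochondria.

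The name of each gene was checked against the gene ontology terms in the annotation. Of the 66 genes, 65 carried the term for a structural constituent of the ribosome, all but MRP8. The 37 genes assigned to the large subunit all carried the term for the large mitochondrial subunit, and the 28 assigned to the small subunit all carried that for the small one. MRP8 carried neither subunit term, and its note describes a protein of unknown function, so that its name and its label disagree. Family names were found for 64 genes, and all 64 stand among the synonyms of the RefSeq annotation of the reference strain S288C (assembly R64). RSM22, a methyltransferase-like protein of the small subunit, and MRP8 had none.

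The large subunit held 15 genes of universal families. These were MRPL1, MRPL4, MRPL6, MRPL7, MRPL9, MRPL10, MRPL11, MRPL16, MRPL19, MRPL22, MRPL23, MRPL33, MRPL38, MRPL40 and MRP20. A further 8 encode bacterial-type proteins, namely MRPL8, MRPL24, MRPL32, MRPL36, MRPL39, MRPL49, MRPL50 and MRP7. The 14 genes of mitochondrial families were MRPL3, MRPL13, MRPL15, MRPL17, MRPL20, MRPL25, MRPL27, MRPL28, MRPL31, MRPL35, MRPL37, MRPL44, MRPL51 and MRP49. In the small subunit, 12 genes were of universal families (MRPS5, MRPS8, MRPS9, MRPS12, MRPS17, MRPS18, MRPS28, MRP2, MRP4, RSM7, RSM10 and RSM19). The 5 bacterial-type genes were MRPS16, MRP17, MRP21, MRP51 and RSM18, and the 10 of mitochondrial families were MRPS35, MRP1, MRP10, MRP13, RSM23, RSM24, RSM25, RSM26, RSM27 and RSM28.

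The name rule does not take in the whole mitoribosome. RefSeq gives a mitoribosomal family name to 79 nuclear genes of S288C, of which 64 fall under the rule and 15 have other names. All 15 have a feature in the W303 annotation. They are IMG1, IMG2, EHD3, MHR1, RML2, MNP1, FYV4, QRI5, YML6, NAM9, SWS2, PET123, RTC6 and a pair listed by systematic name alone. YNL122C, at chr14:398961-399308 on the minus strand of W303, is MRP35 in S288C, a bacterial-type protein of the large subunit, and would have met the rule by its S288C name. YDR115W, at chr4:686452-686769, is MRX14 in S288C, another large subunit protein, and is the downstream neighbour of MRPL1. By the same name rule S288C has 67 genes, of which 66 had a feature in W303 under an MRP or RSM name.

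MRP genes were single copy. A single name, MRPL35, had more than 1 feature, and no pair of names ended in A and B. Among the RPL and RPS genes 54 such pairs, paralogues from the whole-genome duplication of an ancestor, took up 108 of 128 names, or 84.4%. The strands were close to balanced, with 35 MRP features on the plus strand, 31 on the minus strand and 1 with no strand.

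The MRP features had a median length of 699 bp, with quartiles of 442.5 and 886.5 bp and a range of 195 to 1887 bp. The median was 548 bp for RPL and RPS features, with a range of 9 to 1214 bp, and 1230 bp for all nuclear genes. Of the RPL and RPS features, 67.4% did not have the S288C coding length, with 35 shorter and 52 longer. Their 548 bp is thus not a median of coding lengths. In S288C the proteins had medians of 234.5 residues for MRP, 144 for RPL and RPS and 397 for all genes. Of the 67 features 57, or 85.1%, were shorter than 1000 bp, against 38.4% of all nuclear genes and 92.2% of RPL and RPS features. Large subunit features had a median of 660 bp and small subunit features of 769.5 bp, and their ranges overlapped.

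**Figure D1:**
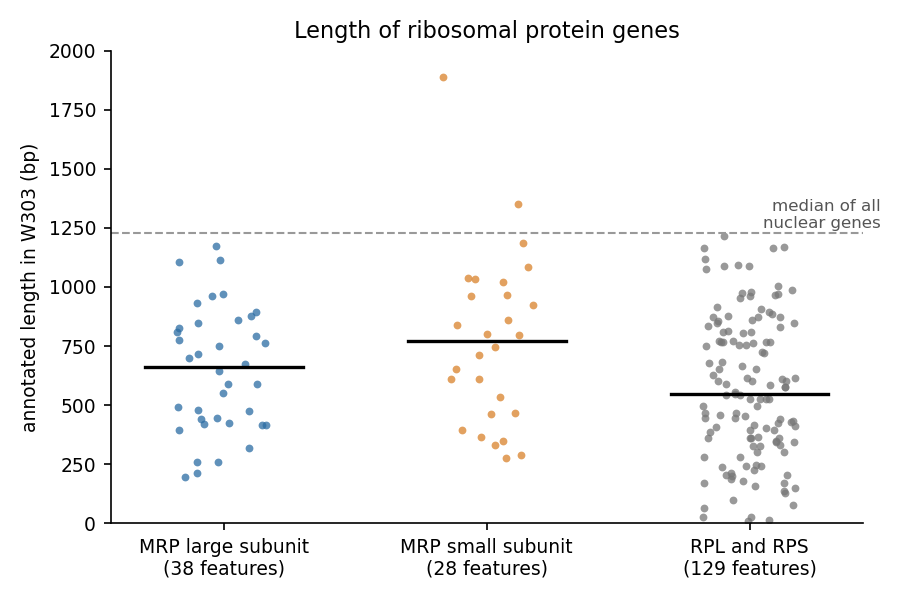
Annotated length in bp of each MRP feature of the large and small subunit and of each RPL and RPS feature in W303. Each point is a feature, the black bar is the median (660, 769.5 and 548 bp) and the dashed line is the median of all nuclear genes (1230 bp), which RSM22 and RSM23 exceed. RPL and RPS features range from 9 to 1214 bp, and 67.4% of them do not have the S288C coding length.

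The longest members were all of the small subunit. RSM22 (chr11:160555-162441) had 1887 bp, RSM23, the mitochondrial counterpart of the GTP-binding protein DAP3 of animals (chr7:263921-265273), had 1353 bp, and MRP4, the family of bacterial S2 (chr8:93906-95090), had 1185 bp. Among the shortest were a 195 bp feature of MRPL35, MRPL39 of the bacterial L33 family with 213 bp (chr13:251630-251842), and MRPL33 of the L30 family (chr13:848504-848764) and MRPL44, both with 261 bp. The order of the family classes differed between the subunits. In the large subunit the median fell from 792 bp in universal families to 633 bp in bacterial-type ones and 444 bp in mitochondrial ones. In the small subunit the mitochondrial families were the longest with a median of 963 bp, above 684 bp for universal and 534 bp for bacterial-type ones. These classes hold between 5 and 15 features each, and their ranges overlapped.

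The annotation notes for each gene whether its size is that of S288C. A size different from S288C was noted for 7 of 67 MRP features, or 10.4%, next to 9.16% of all nuclear gene features, so the share was near the background. For RPL and RPS features it was 63 of 129, or 48.8%. The RPL and RPS genes differ from the MRP genes in introns, which 88 of 132 of them have in S288C (66.7%), against 1 of 66 MRP genes (MRPL44, 1.52%) and 5.3% of all nuclear genes. Among features without an intron in S288C the note was given to 6 of 66 MRP features (9.09%), 11 of 42 RPL and RPS features (26.2%) and 6.72% of all. The 60 MRP features noted as the same all had exactly the coding length of the S288C gene. By length alone, 6 MRP features (8.96%) differed from the S288C coding length, against 67.4% of RPL and RPS features and 10.8% of all. The coding length leaves introns out, while a W303 feature can span them. For genes with introns a difference by length is therefore not by itself a changed size. Of the 52 RPL and RPS features longer than the coding length, 22 were noted as different.

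Of the 7 features noted as different, 6 were of the large subunit and 1, RSM18, of the small subunit. MRPL36 (bL31m, chr2:501370-501960) was 591 bp in W303 and 534 bp in S288C, 57 bp longer. RSM18 (bS18m, chr5:254972-255580) was 609 against 417 bp, 192 bp longer. MRPL49 (bL21m, chr10:247448-248122) was 675 against 486 bp, 189 bp longer. MRPL13 (mL50, chr11:459361-460188) was 828 against 795 bp, 33 bp longer. These 4 had in common that the added length is a whole number of codons (19, 64, 63 and 11) at the 5′ end. In the S288C genome the reading frame is open upstream of each of their start codons as far as a further in-frame ATG, and the outermost such ATG lies exactly 57, 192, 189 and 33 bases upstream. The gap to the upstream gene was shorter in W303 by the same number of bases in each, at 181 against 238 bp for MRPL36, 76 against 268 bp for RSM18, 56 against 245 bp for MRPL49 and 183 against 216 bp for MRPL13. Thus the added length matched the distance to an upstream in-frame ATG of S288C in 4 of the 4 longer MRP features. Among features both noted as different and longer than the S288C coding length, the same held for 50.2% of 249 over all nuclear genes and for 0 of 22 RPL and RPS features. The 249 and the 22 can include features that are longer because they span an intron, whereas the 4 MRP genes have none in S288C. Genes without introns were not counted apart, so these shares are not like for like. Which ATG is used in W303 was not tested.

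The first 30 bases from the outermost in-frame ATG of these 4 genes are shown because they are where the W303 features start by length. They are from the RefSeq genome of S288C (R64), on the coding strand, with the ATG in capitals, at chr2:484531-484560, chr5:254550-254579, chr10:246301-246330 and chr11:451221-451250.
MRPL36: ATGcctccagaaagaacgggtaccaacgca
RSM18: ATGttctattatgcctttaaattgcattgt
MRPL49: ATGgcttcaacgctcttaaccataatcact
MRPL13: ATGggtagacggaaaggcggacatagtatg

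Read as protein, the added codons have a net charge (lysine and arginine less aspartate and glutamate) of -1 in MRPL36, 11 in RSM18, 6 in MRPL49 and 4 in MRPL13. The sign therefore differed between MRPL36 and the other 3.

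MRPL35 (mL38), a mitochondrial protein of the large subunit, had a pair of features. The first, at chr4:1119755-1119949 on the plus strand, was 195 bp, and the second, at chr4:1120199-1121302 with no strand, was 1104 bp, with 249 bp between them. The second has the coding length of S288C, 1104 bp, but was noted as different. Its outer borders matched S288C. The gap to ASP1, the cytosolic asparaginase on the left, was 741 bp in both builds, and the gap to TIM11, a subunit of the ATP synthase on the right, was 310 bp in both. The locus thus spans 1548 bp in W303 and 1104 bp in S288C, 444 bp more. The first 195 coding bases of S288C MRPL35 hold 0 in-frame stops. The W303 sequence was not used here, and whether the added bases are in the strain, the assembly or the annotation was not tested. Counting MRPL35 once gives 6 of 66 genes noted as different.

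MRPL44 (mL53, chr13:721269-721529) was the shorter one, with 261 bp against a coding length of 297 bp. In S288C it has a first exon of 58 bp, an intron of 147 bp and a second exon of 239 bp. The W303 length equals the second exon and 22 bases before it. In S288C that stretch starts with an ATG, ends with a stop codon and has 0 stops between, so the W303 feature has the length of that unspliced reading frame. The gap to its upstream neighbour YMR226C grew from 189 to 372 bp, while the gap to MRE11, a DNA repair nuclease, was 306 bp in both.

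**Figure D2:**
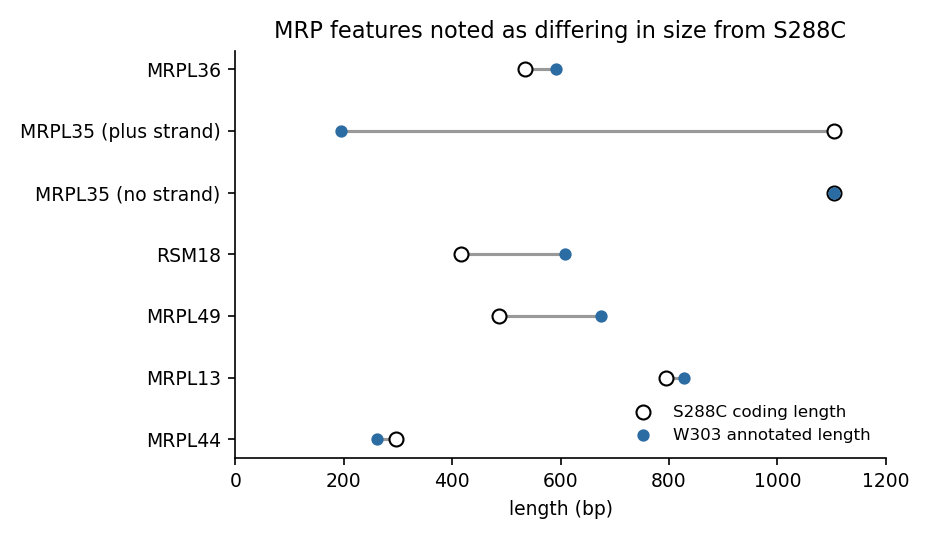
Length in bp of the 7 MRP features noted as differing in size from S288C. Filled points are the W303 features and open points the coding length in S288C, and MRPL36, RSM18, MRPL49 and MRPL13 lie to the right of their S288C length by 57, 192, 189 and 33 bp.

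MRP features lay on 14 of the 16 nuclear chromosomes, with none on chromosomes 1 and 6. Chromosome 4 had the most with 13, followed by chromosome 14 with 9 and chromosome 11 with 8. If the 67 features were shared out as all genes are, these would have 8.68, 4.51 and 3.68. Chromosomes 2 and 13 had 7 each, chromosome 7 had 6, chromosome 16 had 5 and chromosome 10 had 4. At the other end, chromosome 15 held 1, MRPL23 (chr15:612424-612915), among 511 genes, where an equal share would be 6.10, and it held 12 RPL and RPS features. Chromosome 12 held MRPL4 and MRPL15, with an equal share of 5.73, beside 17 RPL and RPS features, the most of any chromosome. Chromosome 8 held MRP4 and MRPL6. Chromosomes 3, 5 and 9 held 1 each, MRPL32, RSM18 and RSM25. RPL and RPS genes were missing from chromosome 1 as well. Both subunits were mixed along the chromosomes, as on chromosome 11, where the order was MRPL38, MRP49, RSM22, MRP8, MRPL31, MRP17, MRPL13 and MRPL20.

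**Figure D3:**
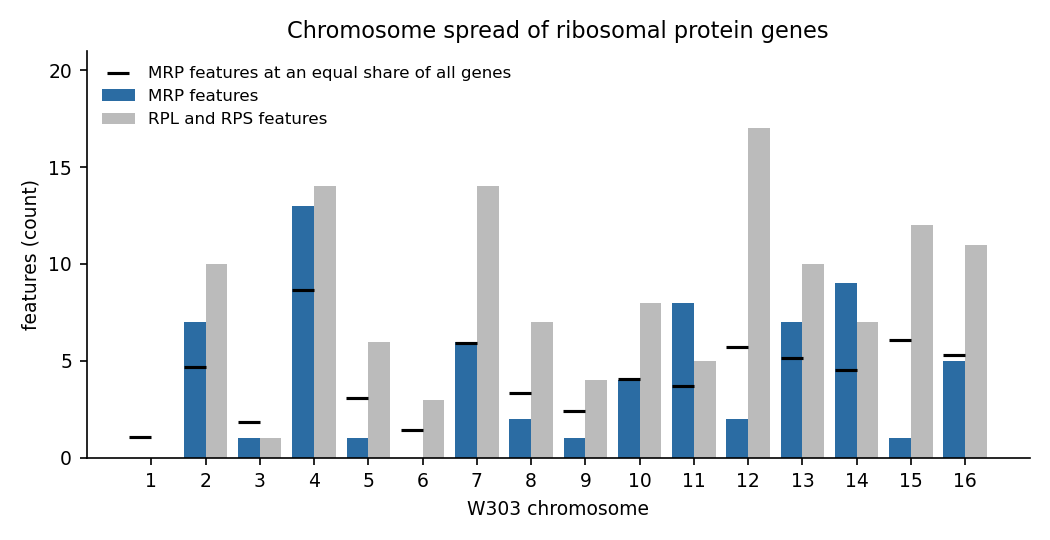
Number of MRP features (blue) and of RPL and RPS features (grey) on each W303 chromosome, with black marks at the number of MRP features an equal share of all genes would give. Chromosomes 4, 11 and 14 stand above the marks with 13, 8 and 9, and chromosomes 12 and 15 below with 2 and 1.

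All members lay on the same chromosome in W303 and S288C, and in the same order on every chromosome but 16. There MRP2, of the S14 family, was the first member in W303 at chr16:126902-127249 and the last in S288C, where it starts at 876282. The remaining 4, MRPL40, MRP51, MRPS16 and MRPL51, kept their order among themselves. No MRP feature lay within 30000 bp of a chromosome end, where 5.43% of all nuclear genes lie. The nearest to an end were MRP21 (49797 bp), MRPL27 (51157 bp) and MRPS18 (58586 bp). The nearest to a centromere were MRP17 (2635 bp), MRPL32 (4118 bp) and MRP4 (5183 bp). tRNA features are listed for chromosomes 1 to 7, which hold 28 of the members. Among these MRPS35 lay 321 bp from a tRNA gene, RSM18 3613 bp and MRPS28 3662 bp.

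An MRP feature was next to another one for 4 of the 67 MRP features, or 5.97%, against 2.37% of all nuclear genes and 3.88% of RPL and RPS features. The 4 include both features of MRPL35. The only adjacent pair of names was MRPS12 and RSM19 on chromosome 14, which encode the S12 and S19 families of the small subunit. Both are on the minus strand, with RSM19 (710860-711135) upstream of MRPS12 (710169-710630) and 229 bp between them. The next closest members, MRPL38 and MRP49 on chromosome 11, were 2670 bp apart with KKQ8, a putative kinase, between them. A gene of the cytosolic ribosome was next to 5 of the 67 MRP features, or 7.46%, against 4.53% of all nuclear genes. RPL11B lay upstream of MRP13 at 240 bp and RPS0A upstream of RSM27 at 386 bp. RPL36A lay downstream of MRPL24 at 332 bp, all of these in tandem. RPS27A faced RSM22 at 243 bp and RPS3 faced MRPL22 at 283 bp, end to end. Of the 15 mitoribosomal genes outside the name rule, YDR115W, convergent to MRPL1 at 231 bp, was the one next to a member. No neighbour came from the list of 12 mitoribosomal proteins with other names, which leaves YDR115W out, or from the lists of mitochondrial translation factors, mitochondrial tRNA synthetases and translational activators. These lists are not complete. GRS1, a glycyl-tRNA synthetase gene on none of them, lay downstream of MRPL36 at 602 bp.

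The gene on the side of the start codon was divergent, that is on the opposite strand, for 38 of 66 MRP features with known strands. This is 57.6%, next to 52.1% of all nuclear genes and 57.5% of RPL and RPS genes, so the share was near the background. It was 21 of 37 in the large and 17 of 28 in the small subunit. The distance did differ in size. The median gap between an MRP gene and its divergent partner was 337.5 bp, with quartiles of 259 and 566 bp and a range of 76 to 1335 bp. For RPL and RPS genes the median was 967 bp (quartiles 720 and 1252 bp) and for all nuclear genes 561 bp. Upstream genes in tandem gave the same order, with medians of 353 bp for MRP, 785.5 bp for RPL and RPS and 419 bp for all genes. These gaps depend on where the W303 features start. Of the 129 RPL and RPS features, 35 were shorter than the S288C coding length, and a feature that lacks its 5′ end has a wider upstream gap. The RPL and RPS gaps were not measured in S288C, so how much of the contrast comes from the annotation was not tested. On the side of the stop codon, 39 of 65 MRP features (60%) faced a convergent gene, against 50.8% of RPL and RPS genes and 52.1% of all.

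**Figure D4:**
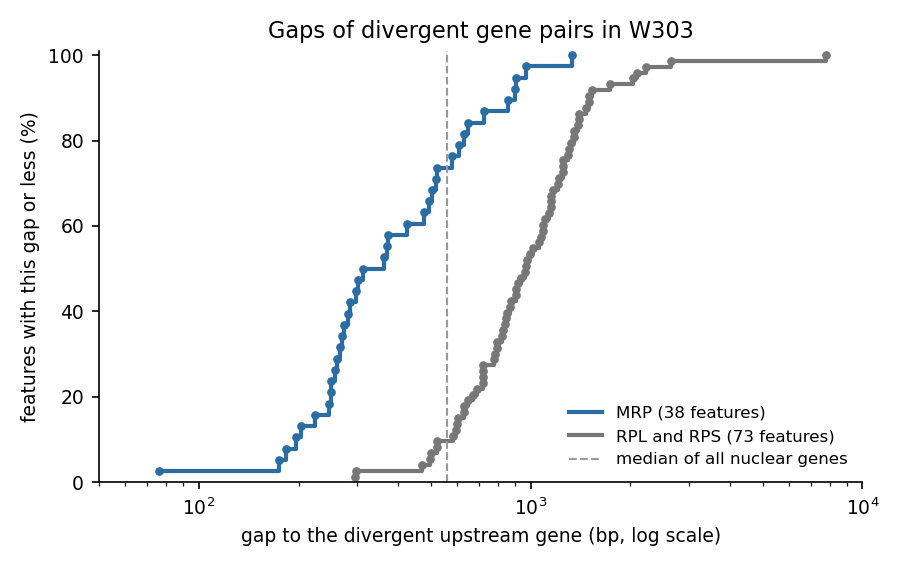
Share of divergent MRP features (38, blue) and of divergent RPL and RPS features (73, grey) with a gap to the upstream gene of at most the value on the horizontal axis, in bp on a log scale. The MRP curve lies to the left, with a median of 337.5 against 967 bp, and the dashed line marks the median of all nuclear genes, 561 bp. Gaps are those of the W303 annotation, and the RPL and RPS gaps were not measured in S288C.

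The shortest divergent gaps were those of RSM18, MRPL20, MRPL13, MRP21 and MRPS8. RSM18 lay 76 bp from JHD1, a histone demethylase. MRPL20 lay 175 bp from PRP16, a helicase of the spliceosome. MRPL13 lay 183 bp from MEH1, a component of the EGO complex at the vacuole. MRP21 lay 196 bp from MAP2, a methionine aminopeptidase, and MRPS8 lay 203 bp from AIM36, a mitochondrial protein of unknown function. In S288C the gaps of RSM18 and MRPL13 were 268 and 216 bp and those of MRPL20, MRP21 and MRPS8 were the same as in W303, so that the shortest gap is that of RSM18 in W303 but not in S288C. The longest gaps were those of RSM10 with ENA1, a sodium pump, at 1335 bp, RSM7 with YJR115W at 966 bp, and MRP7 with HRB1, an RNA-binding protein, at 903 bp. MRP7 and HRB1 were 486 bp apart in S288C, where HRB1 has an intron and spans 1707 bp, while its W303 feature has 1290 bp.

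Of the 38 divergent gaps, 30 had exactly the same length in S288C. The 8 that did not were those of RSM18, MRPL13, MRPL51, MRPL28, MRP4, MRPL16, MRPL27 and MRP7. For MRPL51 and MRP4 the S288C gap is to another gene, YPR099C and YHL005C, so the gap of the same pair was not compared. The partners had varied roles. A term for the mitochondrion was carried by 7 of the 38 partners, or 18.4%, next to 17.4% for the divergent partners of all nuclear genes and 19.2% for those of RPL and RPS genes. The 7 were AIM36 (with MRPS8), COA3, an assembly factor of cytochrome c oxidase (with MRPL8), YPR098C (with MRPL51), GCV2, a subunit of glycine decarboxylase (with MRPS17), ACK1 (with MRPL11), MSS1, which modifies mitochondrial tRNA (with MRPL3), and AIM25 (with RSM26). CMC1 (with MRPL31) did not carry this exact term, though its note places it in the mitochondrial intermembrane space. The count is thus of the term and not of all mitochondrial partners. No member was among the 38 divergent partners of members, and 8 of the 73 partners of RPL and RPS genes were themselves RPL or RPS genes. Among the 2796 divergent partners of all nuclear genes, 38 were members and 73 were RPL or RPS genes. With so few members in the background, the absence of such a pair is not a trait of the MRP genes. Partners with roles in the making of cytosolic ribosomes were IMP3 (with MRPL6), NGL2 (with MRPL33), DBP6 (with RSM19) and RRP12 (with MRPS16). Partners with roles in transcription or chromatin were SNF12 of SWI/SNF (with MRPL50), NGG1 of SAGA (with RSM24), RPB7 of RNA polymerase II (with MRP20) and JHD1.

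The other divergent pairs were those of RSM22 with the gene of the beta subunit of the signal recognition particle receptor, MRPL32 with CDC10, MRPL31 with CMC1, RSM25 with YIL092W, MRP17 with DID4, MRPL28 with YDR461C-A and MRPL4 with LSM3. Also divergent were MRP51 with DBP1, MRPL40 with NIP100, MRP4 with SHU1, MRPL16 with URA7, MRP1 with SVF1, MRPS18 with MCK1, MRPL23 with SMP3, MRPL27 with DUG2, MRPL15 with YLR312C and MRPL7 with FMN1. Their gaps ran from 258 bp (RSM22) to 722 bp (MRPL7).

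The sequences between a pair of these genes in S288C are shown as examples of a short shared promoter region, read on the coding strand of the MRP gene and ending at its start codon. AATTTT, a sequence known from promoters of genes of rapid growth, is in capitals on either strand, so that it appears also as AAAATT. The first is chr11:599682-599856, with 175 bases between PRP16 and MRPL20. The second is chr14:695328-695594, with 267 bases between DBP6 and RSM19, the upstream member of the adjacent pair.
MRPL20: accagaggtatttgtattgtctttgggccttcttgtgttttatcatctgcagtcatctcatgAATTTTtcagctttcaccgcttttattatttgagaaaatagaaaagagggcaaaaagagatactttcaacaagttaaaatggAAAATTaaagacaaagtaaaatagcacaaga
RSM19: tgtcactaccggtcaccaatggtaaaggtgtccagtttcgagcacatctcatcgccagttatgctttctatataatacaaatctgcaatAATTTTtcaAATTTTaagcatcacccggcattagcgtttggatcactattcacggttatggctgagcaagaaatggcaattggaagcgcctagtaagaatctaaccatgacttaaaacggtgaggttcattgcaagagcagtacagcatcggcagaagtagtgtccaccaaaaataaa

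The gene order around the members was mostly that of S288C. Of 66 MRP features compared, 58 (87.9%) had the same gene on both sides, next to 87.1% of all nuclear genes and 80.6% of RPL and RPS genes. The upstream gene by order of start was another one for MRPL37, MRPS35, MRP4, MRPL19 and MRPL51. In each case the S288C neighbour (SLM6, YGR164W, YHL005C, YNL184C and YPR099C) had no feature of that name in the annotation. The neighbour by start need not be the nearest gene, as SLM6 was 910 bp from MRPL37 in S288C and REI1 276 bp in W303. YHL005C, YNL184C and YPR099C overlap their member in S288C, with gaps of -2, -113 and -323 bp. In the same way no gene feature was named YMR158C-A downstream of MRPS8 or YNL284C-A downstream of MRPL10. Neighbours here are gene features, so transposon features were passed over. The gap between MRPL10 and CUS2, its convergent neighbour in W303, was the longest at 7162 bp, and 2 transposon features lie in it, the nearer one (chr14:98727-102767) 925 bp from MRPL10. The gap between MRPL33 and DSS1, a mitochondrial exonuclease, was 2050 bp in W303 and 233 bp in S288C with no gene between.

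Promoters were read in S288C from 250 bases before to 50 after the start codon. AATTTT was present on either strand in 27 of 66 MRP promoters (40.9%), against 54.5% of RPL and RPS promoters and 51.7% of all promoters. It was in 16 of 37 large and 11 of 28 small subunit promoters. MRPS16 had 4 matches, and MRP49 and MRPL24 had 3 each. CCAAT, the core bound by the Hap complex, the activator of respiratory genes, was in 27 promoters as well (40.9%), near the 43.3% of all promoters and 43.2% of RPL and RPS promoters. MRPL16, RSM10 and MRP13 had 3 matches each. CCCATACA, a core of the Rap1 site, was in 1 MRP promoter, that of MRPS5 (1.52%), and in 2.27% of RPL and RPS and 0.866% of all promoters. Only exact matches were counted, so sites of another sequence or more than 250 bases before the start codon were missed. The share is therefore not the share of promoters that Rap1 binds. The overlap of both sequences, CCAATTTT, occurred in 1 MRP promoter.

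A clear contrast with the RPL and RPS genes stood behind the stop codon. Puf3, an RNA-binding protein of the Pumilio family, is known to bind messages of mitochondrial proteins in the 3′ UTR at sites with the core TGTANATA, written in DNA letters with N for any base. This pattern was searched on the coding strand in the 200 bases after the stop codon in S288C. It was present in 64 of 66 MRP genes (97%), against 14.1% of all nuclear genes and 5 of 132 RPL and RPS genes (3.79%). All 37 large subunit genes and 27 of 28 small subunit genes had it, and RSM22 and MRP8 did not. The site is known from messages of this kind, so the count describes these genes and is not an independent discovery of the site.

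Of the 64 genes 51 had 1 site, 12 had 2 and RSM19 had 3. The 12 were MRPL1, MRPL3, MRPL19, MRPL24, MRPL28, MRPL33, MRPL36, MRPL49, MRPS5, MRPS16, MRP1 and RSM24. The 78 sites began at a median of 54.5 bases after the stop codon, with a range of 8 to 165. The base at N was A in 36 sites, T in 24, C in 17 and G in 1, that of MRPL3. With the narrower TGTAAATA, 36 MRP genes (54.5%) had a site, against 4.27% of all genes and 0.758% of RPL and RPS genes. The base composition of the windows was similar, with a median of 30.75% G and C for MRP genes, 27.5% for RPL and RPS genes and 31.5% for all. The reverse complement of the pattern, a comparison of the same composition added after the data had been seen, was in 19.7% of MRP windows, 12.9% of RPL and RPS windows and 13.2% of all. In the members a C stood at the second base before the site in 51 of 78 sites (65.4%), and in 205 of 836 sites (24.5%) of other nuclear genes.

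Sites of members that recur in the results are shown with up to 8 flanking bases, on the coding strand of S288C, the site in capitals. They are the features of changed size, the adjacent pair RSM19 and MRPS12, the short divergent gap of MRPL20, and MRPL3 for its G.
MRPL36 at chr2:483853-483876: aacagcctTGTATATAccgcaaca
MRPL36 at chr2:483817-483840: tctacataTGTATATAttgacaac
MRPL49 at chr10:246980-247003: tagggataTGTACATAtacgcata
MRPL49 at chr10:247008-247031: taaaatcaTGTAAATAacaataaa
RSM18 at chr5:253889-253912: gttctgtcTGTAAATAtacaatat
MRPL13 at chr11:450361-450384: taatatccTGTACATAtatatact
MRPL35 at chr4:1111713-1111736: tagtatccTGTACATAtaaaataa
MRPL44 at chr13:720857-720880: agcaagccTGTAAATAatatatat
RSM19 at chr14:695027-695050: ggatctagTGTATATAgatttcta
RSM19 at chr14:694999-695022: atatatcaTGTAAATAagatcaag
RSM19 at chr14:694971-694994: actcgggcTGTATATAtatatata
MRPS12 at chr14:694272-694295: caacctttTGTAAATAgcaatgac
MRPL20 at chr11:599052-599075: aacaatcgTGTAAATActactcta
MRPL3 at chr13:323057-323080: tgccatttTGTAGATAgagaactc

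The site was also frequent in other genes of mitochondrial translation. It was found in 12 of 12 listed mitoribosomal proteins with other names, in 13 of 13 mitochondrial tRNA synthetases, in 7 of 8 translation factors and in 10 of 14 translational activators. Of the 924 other genes with a term for the mitochondrion 258 had it, or 27.9%. The 15 genes with a family name outside the rule, MRP35 among them, all had it.

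**Figure D5:**
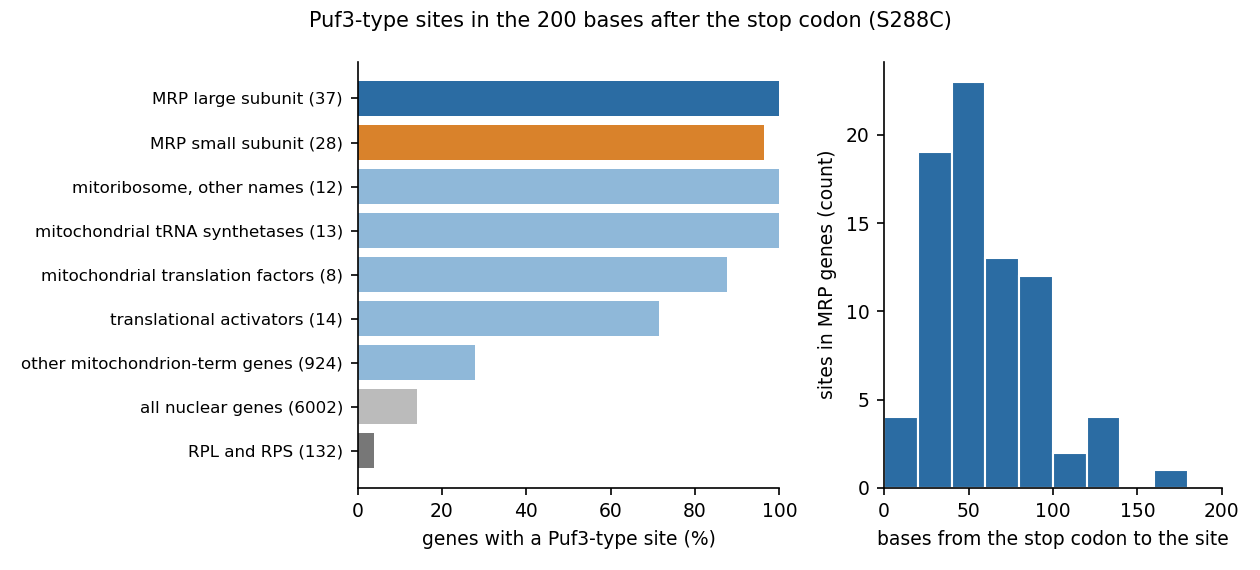
Left, percent of genes of each set (number of genes in brackets) with a Puf3-type site in the 200 bases after the stop codon in S288C, which is 100 and 96.4% for the large and small subunit MRP genes, 14.1% for all genes and 3.79% for RPL and RPS genes. Right, number of the 78 sites in MRP genes by distance from the stop codon in bins of 20 bases, most of them under 100 bases.

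At the other end of the protein, the first 30 residues of the MRP proteins had a median net charge of 4, as did those of the RPL and RPS proteins, against 1 for all nuclear genes. It was 5 or more in 30 of 66 MRP proteins (45.5%), 44.7% of RPL and RPS proteins and 13% of all. The lowest was MRP8 with 0 and the highest MRPL4 with 8, and 65 of 66 were positive. The MRP proteins parted from the RPL and RPS proteins in acidic residues. No aspartate or glutamate was present in the first 30 residues of 29 MRP proteins (43.9%), against 20.5% of RPL and RPS proteins and 12.3% of all. The share was 48.6% in the large and 39.3% in the small subunit. Neither trait was particular to the members. The share without acidic residues was 75% in the listed mitoribosomal proteins with other names and 87.5% in translation factors. It was 46.2% in mitochondrial tRNA synthetases and 57.1% in translational activators. Median charges in these lists were 5, 5, 5 and 5.5. Other genes with a term for the mitochondrion had a share of 28.8% and a median charge of 3. MRP8 thus had a charge of 0 and 4 acidic residues in this stretch, no Puf3-type site and no subunit term. RSM22, the other member without the site, had a charge of 4 and 1 acidic residue.

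The listed genes that work with the mitoribosome were all present, each with 1 feature. They were longer than the MRP genes except for the mitoribosomal proteins with other names, whose median was 633 bp. The medians were 1626 bp for 8 translation factors, 1611 bp for 13 tRNA synthetases and 1390.5 bp for 14 translational activators. A size different from S288C was noted for YML6 (1769 against 861 bp), a universal large subunit protein, for MSF1, the phenylalanyl-tRNA synthetase, and for CBS1, an activator of cytochrome b translation, and for none of the translation factors. Divergent upstream genes were found for 9 of 12, 2 of 8, 6 of 13 and 5 of 14 genes of these lists.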

How the data were processed

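The deposited file is the authors' annotation of W303 (assembly ASM216351v1). It holds no measurement of a library and gives the first and last base, strand, name, ontology terms and size note of each feature. The authors ran the Yeast Genome Annotation Pipeline (version not given in the sources used here), sought missed ORFs by BLASTn, and took names and size notes from S288C. Positions carry no replicate error and no depth.

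Members were taken by name. Neighbours are the adjacent gene features by start, and gaps are the bases between them. Features were matched by systematic name to the RefSeq annotation of S288C (R64), with coordinates kept in the build they belong to. All sequences and charges come from S288C, since the W303 sequence was not used here. MRPL, MRPS and RSM names, roles, lists and motifs were chosen with earlier results of these data known. Full values are given for members noted as different in size, with several features or no strand, the longest and shortest, the 5 shortest and 3 longest divergent gaps, members beside another member, a listed gene or an RPL or RPS gene, the 3 nearest to a tRNA gene, centromere or chromosome end, and the 3 with most motif matches. Others were named after their values were seen. Neighbour, motif and frame searches were tested on simulated data. Scripts ran under python 3.11.15 with scipy 1.17.1, numpy 2.4.6 and, for plots, matplotlib 3.10.9. The alternatives tried changed the members, neighbours, annotation, windows and patterns, and for shares a move was read against the exact binomial interval at 95%, for medians against the SD over members and for counts against a factor of 1.5.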

Additional observations from a re-analysis of the deposited data

How the results depend on the processing

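Of 25 alternatives, 22 of them planned and 3 chosen after seeing the data, 21 moved a value by less than its interval or spread and 4 by more. The bounds for medians were wide, at 386.4 to 1012 bp for MRP length and 66.54 to 608.5 bp for the divergent gap. Several alternatives left out a single feature. The count of 21 therefore says little about how firm the values are. The share of RPL and RPS features noted as different in size fell to 26.2% with genes without an intron alone. The share of MRP promoters with AATTTT was 25.8% on the coding strand alone. The share of MRP downstream windows with the Puf3-type site was 54.5% for TGTAAATA alone and 19.7% for the reverse complement of the pattern, and 97% with 150 or 300 bases. The first of these 4 leaves out the 87 RPL and RPS features with an intron in S288C, of which 52 were noted as different. The others search a single strand or a narrower or other pattern. The share with a divergent neighbour ranged from 56.7 to 59.1%, and the median divergent gap was 312 bp in the gene order of S288C and 321 bp with all stranded features as neighbours. The S288C gaps include -323 bp for MRPL51 and -2 bp for MRP4, whose S288C neighbours overlap them. They also include 910 bp between MRPL37 and SLM6, a member that is in tandem with REI1 in W303. With mitoribosomal proteins of other names added, 10.1% of 79 features were noted as different. No paired analysis was possible because the replicates carry no values in the file analysed. The annotation is a single list, so that no spread between samples limits or supports any count, and an error of the assembly or the annotation cannot be told apart from a difference of the strain.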
